A study of Homo sapiens with 2 samples.

Results

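The immediate early AP-1 and EGR genes FOS, FOSB, FOSL1, FOSL2, JUN, JUNB, JUND, EGR1, ATF3 and IER2 were examined in HEK293T cells that had recovered from heat shock. These 10 genes were taken by name, and each symbol matched a single Ensembl identifier among the 57736 genes listed for every library. HEK293T is a human embryonic kidney line transformed with adenovirus DNA and later given the SV40 large T antigen. The labels give it as wild type. Both libraries of the series belong to 1 group, in which cells were heated for 20 min at 43 °C, returned to 37 °C for 6 h and lysed separately for each replicate, after which poly(A)+ RNA was sequenced. The 20 min is taken from the labels, whereas the study's text describes a longer heating at 43 °C. Untreated cells, with which the study compared this group, are not analysed here. The values therefore describe the state after recovery and the spread between replicate 1 and replicate 2, and no change with heat shock was measured.

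AP-1 is a family of dimeric transcription factors built from basic leucine zipper proteins. JUN proteins pair with each other, with FOS proteins or with members of the ATF family, whereas FOS proteins need a partner. Many of these genes, together with the zinc finger factor EGR1 and the small nuclear protein IER2, are immediate early genes: growth factors and stress switch them on through MAP kinases, SRF and its ternary complex partners, without new protein synthesis, and their short-lived mRNAs then decay. ATF3 is a stress-induced member of the ATF family that often acts as a repressor. JUND is known for steadier expression than JUN and JUNB.

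The sequences just upstream of the start sites of JUN, JUND, FOS and EGR1 are shown because these 4 genes span high and low levels, described below. Between them, and not each alone, these sequences hold matches to several classical elements of immediate early promoters. They are the RefSeq promoter sequences on GRCh38.p14, the 250 bases before the start site, read 5′ to 3′ on the strand of the gene. Capitals mark the matches to the cyclic AMP response element (CRE) TGACGTCA and its core TGACG, the AP-1-like element TGACATCA, the CArG box bound by SRF, the EGR element GCGNGGGCG and the TATA box TATAAA. The JUN sequence is chr1:58784048-58784297 on the minus strand, the JUND sequence chr19:18281623-18281872 on the minus strand, the FOS sequence chr14:75278578-75278827 on the plus strand and the EGR1 sequence chr5:138465229-138465478 on the plus strand.
JUN: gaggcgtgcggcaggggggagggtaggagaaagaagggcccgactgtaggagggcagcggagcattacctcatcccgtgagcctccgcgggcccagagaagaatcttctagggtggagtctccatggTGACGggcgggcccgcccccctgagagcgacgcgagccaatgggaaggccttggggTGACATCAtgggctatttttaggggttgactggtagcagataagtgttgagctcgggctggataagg
JUND: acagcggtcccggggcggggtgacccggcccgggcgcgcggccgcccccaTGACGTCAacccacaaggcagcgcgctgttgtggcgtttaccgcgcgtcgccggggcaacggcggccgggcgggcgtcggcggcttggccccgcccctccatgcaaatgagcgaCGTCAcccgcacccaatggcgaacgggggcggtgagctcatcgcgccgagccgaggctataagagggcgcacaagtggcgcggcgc
FOS: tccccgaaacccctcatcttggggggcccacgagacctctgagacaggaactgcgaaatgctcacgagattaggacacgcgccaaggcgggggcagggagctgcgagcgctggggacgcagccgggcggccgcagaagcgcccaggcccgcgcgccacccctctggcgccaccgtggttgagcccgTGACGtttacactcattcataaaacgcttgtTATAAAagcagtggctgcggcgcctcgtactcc
EGR1: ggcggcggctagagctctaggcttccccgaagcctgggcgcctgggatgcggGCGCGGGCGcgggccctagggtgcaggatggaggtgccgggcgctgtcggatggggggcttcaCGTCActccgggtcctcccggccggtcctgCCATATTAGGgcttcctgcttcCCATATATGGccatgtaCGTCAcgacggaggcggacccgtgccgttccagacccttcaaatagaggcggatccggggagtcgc

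Windows of 300 bases, from 250 before to 50 after a start site, were available for 9 of the 10 genes, with 2 windows for ATF3. FOSL1 had no entry. All motifs were searched on both strands, except TATAAA on the strand of the gene, and were compared with all 35116 windows of the table. TGACG was present in the windows of 8 of the 9 genes, that is, of all but ATF3, and in 24.6% of all windows. Sequence outside the windows was not searched, including any other start sites of ATF3, which has 9 transcripts. The whole CRE, which contains TGACG on either strand, was found in JUND alone of these genes, at bases -200 to -193 counted from a start site at 0, and in 1.85% of all windows. TGACATCA was present in JUN and ATF3 (2.61% of all windows), and the AP-1 element TGANTCA in FOSL2 (7.71%).

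The CArG box was matched in EGR1 alone, at 2 places (bases -105 to -96 and -83 to -74), against 1.29% of all windows. EGR1 also held the element that its own protein binds, GCGNGGGCG (9.43% of all windows). TATAAA was present in FOS, FOSB, JUNB and ATF3 (7.33% of all windows), and CCAAT in JUN, JUNB, JUND and ATF3 (34.6%). The TATAAA of FOS began at base -33, that of FOSB at -30 and that of JUNB at -31. In ATF3 it lay far upstream, at bases -230 to -225 of 1 window, while CCAAT and TGACATCA lay in the other window. The heat shock element, searched as alternating GAA and TTC triplets, was in 0 of the 10 windows and in 0.490% of all windows for either phase. These are matches of letters only, and an absent match says only that these letters are not in the window.

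**Figure D1:**
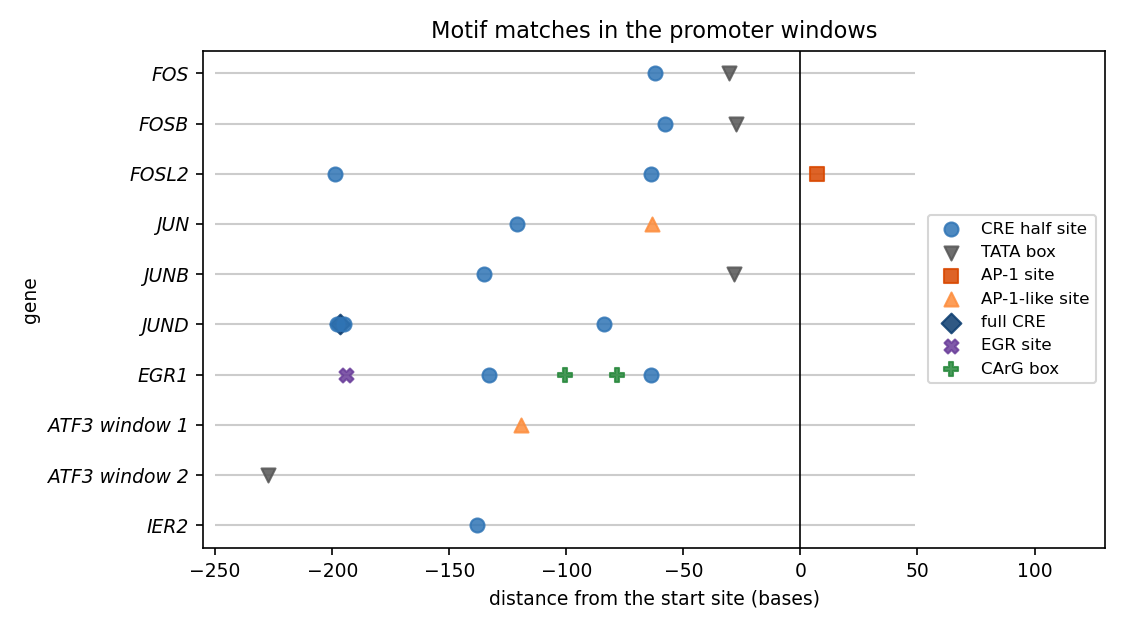
Motif matches (symbols) in the RefSeq promoter windows of 9 genes, drawn by distance in bases from the start site at 0, with 2 windows for ATF3. CRE core matches lie in the windows of 8 of the 9 genes, and the pair of CArG boxes lies in that of EGR1.

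All 10 genes were detected, that is, had a TPM (transcripts scaled to length and to the same total in every library) of at least 1 in both libraries. Among all listed genes 26.3% were detected, and among protein-coding genes 63.8%. The levels fell into an upper range of 5 genes, from 21.61 TPM for JUNB to 125.79 TPM for JUN, and a lower range of 5 genes, from 1.49 TPM for FOSL2 to 4.25 TPM for FOSL1. The median of the 10 means was 13.4 TPM, beside 18.6 TPM for the 12367 detected protein-coding genes, whose quartiles were 7.27 and 46.2 TPM. In a bulk measurement, fewer cells with a transcript and fewer copies per cell cannot be told apart.

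By mean TPM the order was JUN, JUND, ATF3, IER2, JUNB, FOSL1, EGR1, FOS, FOSB and FOSL2. In 6 of the 9 neighbouring pairs both libraries of the higher gene lay above both of the lower one. The pairs that overlapped were JUND and ATF3, EGR1 and FOS, and FOSB and FOSL2. By the deposited credibility bounds 4 of the 9 pairs were told apart, as the bounds of IER2 and JUNB, and of FOS and FOSB, also overlapped. The widest step was between JUNB and FOSL1, with a ratio of means of 5.68.

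**Figure D2:**
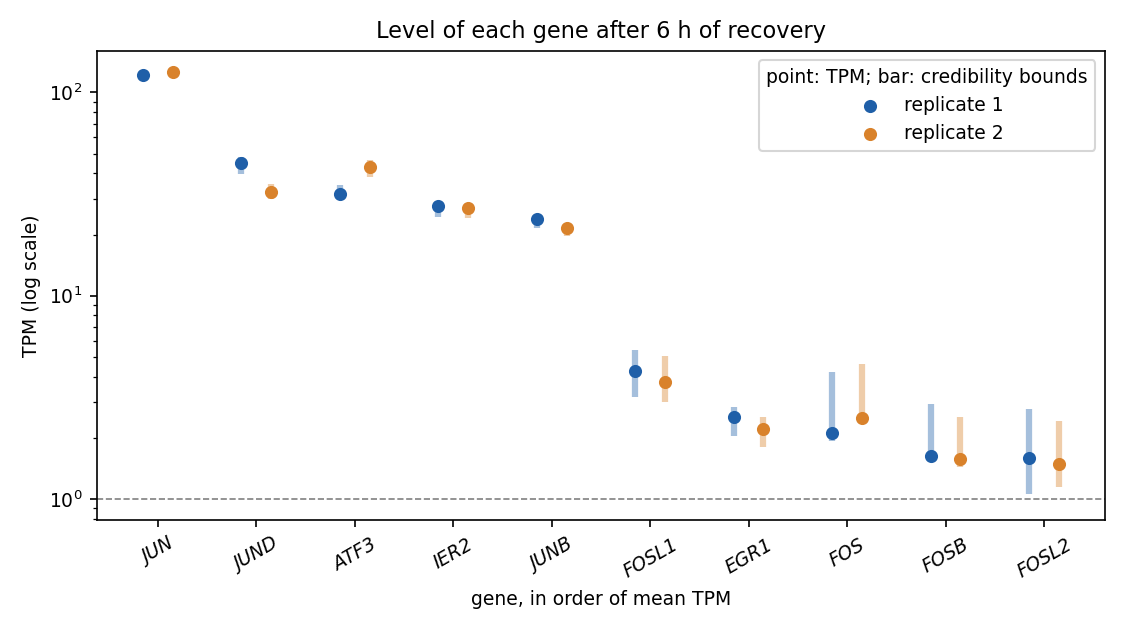
TPM of each gene (log scale) in replicate 1 and replicate 2, with the deposited credibility bounds as bars and a dashed line at 1 TPM. JUN stands at 121.2 and 125.79 TPM, and FOSL1, EGR1, FOS, FOSB and FOSL2 all lie under 5 TPM.

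Among the FOS family, FOS (ENSG00000170345, chr14:75745529-75748933 on GRCh37, plus strand), the founding FOS subunit, was at 2.11 and 2.51 TPM (mean 2.31 ± 0.28, SD, n = 2). These levels rested on 32 and 54 expected counts, the number of reads that the quantifier assigned to the gene. Both libraries placed FOS low, at percentile 6.71 of the detected protein-coding genes. The deposited lengths of FOS, weighted by the share of its 10 transcripts, were 879 and 1085 bases, whereas its canonical transcript has 2104 bases. Scaled to the canonical transcript, FOS was at 0.85 and 1.27 TPM.

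FOSL1 (ENSG00000175592, chr11:65659520-65668044, minus strand), which encodes FRA-1, was the highest of the FOS family at 4.25 and 3.75 TPM (4.0 ± 0.35, SD, n = 2). Its expected counts were 84.8 and 93.03. The libraries lay above both values of FOS, FOSB and FOSL2, and 2.94% of the 50-base sequences of FOSL1 also occur in the pseudogene FOSL1P1, which was at 0.23 and 0.63 TPM. FOSB (ENSG00000125740, chr19:45971253-45978437, plus strand) was at 1.62 and 1.57 TPM (1.59 ± 0.035, SD, n = 2), from 101 and 94 counts. FOSB lies wholly within the span of the DNA repair gene ERCC1 on the other strand, which was at 53.06 and 46.05 TPM. Whether the counting used strand is not given, and the strand of reads in the shared span was not checked. Of the 50-base sequences of FOSB, 0.242% occur in other genes on either strand. Its counts had posterior SDs, as given by the quantifier, of 0 in both libraries.

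FOSL2 (ENSG00000075426, chr2:28615315-28640184, plus strand), which encodes FRA-2, was the lowest of the 10 genes at 1.59 and 1.49 TPM (1.54 ± 0.071, SD, n = 2). Its counts were 88.93 and 104. FOSL2 and FOSB overlapped in level. The canonical FOSL2 transcript has 6713 bases against deposited lengths of 3111 and 3400, and gave 0.73 and 0.75 TPM. With canonical lengths throughout, 8 of the 10 genes had at least 1 TPM in both libraries, the exceptions being FOS and FOSL2.

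In the JUN family, JUN (ENSG00000177606, chr1:59242517-59249720, minus strand), the main activating JUN subunit, was the most abundant of the 10 genes at 121.2 and 125.79 TPM (123 ± 3.25, SD, n = 2). Its counts were 7235 and 8546. JUN stood at rank 1051 of the 12367 detected protein-coding genes, and its libraries were both above every other value of the 10 genes. The deposited TPM lay just above its own credibility bounds in both libraries, whose upper limits were 120.1 and 124.9 TPM. Of the 20 values of the 10 genes, 3 lay outside their bounds, the third being FOSB in replicate 1.

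JUND (ENSG00000130522, chr19:18390504-18392432, minus strand), the JUN subunit often described as restraining growth, was at 45 and 32.29 TPM (38.6 ± 8.99, SD, n = 2), from 1322 and 1205 counts. The JUND libraries differed more than those of JUN. JUNB (ENSG00000171223, chr19:12902300-12904129, plus strand), a weaker activator than JUN, was at 23.80 and 21.61 TPM (22.7 ± 1.55, SD, n = 2), from 767 and 792.57 counts. JUNB lay below both libraries of JUND. The whole of JUNB overlaps HOOK2 on the other strand, 11.8% of the 50-base sequences of JUNB are shared with it, and HOOK2 was at 22.42 and 22.60 TPM. The counts of JUNB had small posterior SDs of 0.77 and 0.91.

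JUN was 2.69 times JUND in replicate 1 and 3.90 times in replicate 2 on the TPM scale. It was 5.09 and 5.82 times JUNB, and 57.4 and 50.1 times FOS. The ratio to FOS rests on the short deposited lengths of FOS, and with canonical lengths it was 145 and 101. The canonical transcripts of JUN, JUNB and JUND each have a single exon, as do those of 5.47% of 19894 protein-coding genes.

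ATF3 (ENSG00000162772, chr1:212738676-212794119, plus strand) was at 31.81 and 43.19 TPM (37.5 ± 8.05, SD, n = 2), from 1063 and 1446 counts. It overlapped JUND, below it in replicate 1 and above it in replicate 2. The TPM of replicate 2 was 1.36 times that of replicate 1, whereas the scaled counts had a ratio of 1.10. The weighted length of ATF3, which has 9 transcripts, was 1880 bases in replicate 1 and 1661 in replicate 2.

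EGR1 (ENSG00000120738, chr5:137801168-137804992, plus strand), a zinc finger factor of GC-rich promoters, was at 2.52 and 2.21 TPM (2.37 ± 0.22, SD, n = 2). Each library held 142 counts. EGR1 overlapped FOS and lay below FOSL1 in both libraries. IER2 (ENSG00000160888, chr19:13261225-13265725, plus strand) was at 27.49 and 26.91 TPM (27.2 ± 0.41, SD, n = 2), from 899.52 and 1063.64 counts. IER2 shares 47.5% of its 50-base sequences with other genes, 27.6% with ENSG00000267598 and 19.9% with ENSG00000287296, which is not among the listed genes. The counts of IER2 had posterior SDs of 17.15 and 18.4, the same as those of the antisense lncRNA ENSG00000267598. That lncRNA was at 14.66 and 16.45 TPM, and the division of reads between it and IER2 is uncertain.

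Summed by family, JUN, JUNB and JUND held 190.0 and 179.69 TPM (185 ± 7.29, SD, n = 2). FOS, FOSB, FOSL1 and FOSL2 together held 9.57 and 9.32 TPM (9.44 ± 0.18, SD, n = 2). The JUN family was 19.9 times the FOS family in replicate 1 and 19.3 times in replicate 2, or 31.6 and 30.4 times with canonical lengths. In both libraries the summed FOS family was below each single JUN gene.

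Of the TPM of the 8 AP-1 genes, the JUN family held 82.1% in replicate 1 and 77.4% in replicate 2 (79.8% ± 3.34, SD, n = 2). The FOS family held 4.07% ± 0.086 (SD, n = 2) and ATF3 16.2% ± 3.43 (SD, n = 2). The sum over the 8 AP-1 genes was 231.38 and 232.20 TPM. Within that nearly equal sum, JUND was lower and ATF3 higher in replicate 2.

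**Figure D3:**
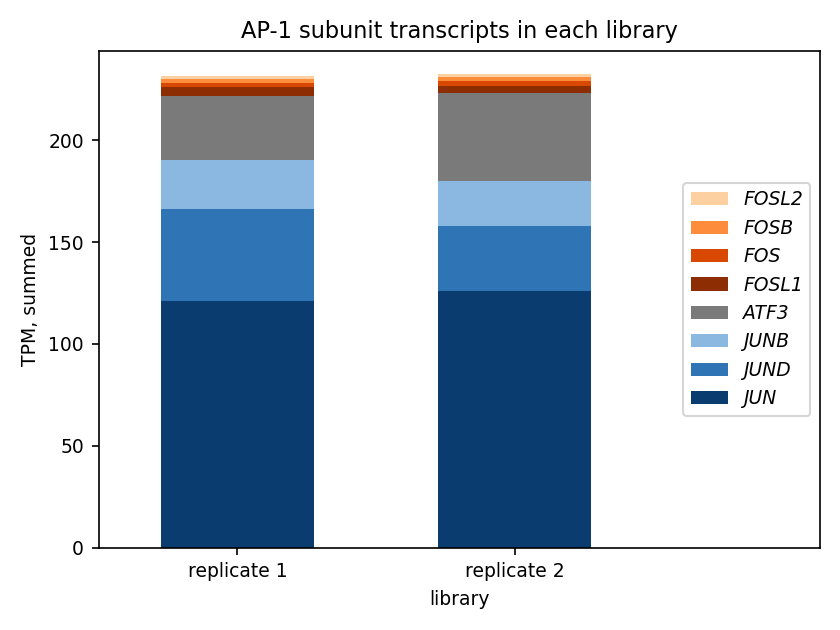
Summed TPM of the 8 AP-1 genes in each library, stacked by gene from 0. The JUN family (blue) makes up 82.1% and 77.4% of the bars, ATF3 (grey) most of the rest, and the FOS family (orange and brown) the thin cap.

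The libraries were next compared with each other, to show how far a level can be trusted. The ratio of scaled counts, replicate 2 over replicate 1, was tested for each of 19714 genes by an exact binomial test, two-sided and adjusted by Benjamini-Hochberg. Its p-values compare these 2 libraries and not conditions, and treat counting as the only source of spread. The labels do not say whether the replicates came from separate cultures, so this spread may be technical. JUN, JUNB, JUND and ATF3 passed the threshold of 0.05, 4 of 10 genes, beside 42.5% of all genes tested. By scaled counts JUN, JUNB and JUND were higher in replicate 1, as were 21.9% of all genes, although JUN and JUNB turned to the other side once GC content was allowed for. On the TPM scale JUN was higher in replicate 2, at 125.79 against 121.2 TPM, so its direction differs between the scales. ATF3 was higher in replicate 2, as were 20.6%. Among genes with 100 or more counts over both libraries, which hold all 10 except FOS, 56.3% passed.

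JUND had the largest difference that passed, with a log2 ratio of -0.44 (95% exact interval -0.55 to -0.32, adjusted p = 2.82e-13). JUNB had a log2 ratio of -0.26 (-0.40 to -0.11, adjusted p = 0.00175). The JUN ratio was smaller, at -0.06 (-0.11 to -0.02, adjusted p = 0.0165). JUN had the most counts of the 10 genes, and with library totals in place of TMM factors its log2 ratio was -0.01 and its adjusted p 0.689. ATF3 had a log2 ratio of 0.14 (0.03 to 0.26, adjusted p = 0.0407).

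FOS had the widest interval, from -0.21 to 1.13 around a log2 ratio of 0.45 (adjusted p = 0.322). At this depth the interval reached past a 2-fold difference. The intervals also included 0 for FOSB (log2 ratio -0.41), EGR1 (-0.30), FOSL1 (-0.17), FOSL2 (-0.08) and IER2 (-0.06). All 10 genes were within 2-fold between the libraries. Their median absolute log2 ratio was 0.21, beside 0.24 for the 13840 genes with 100 or more counts.

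GC content moved with the ratio between the libraries. All 10 genes were above the median GC content of 49.04%, from 50.3% for ATF3 to 69.9% for JUND. Genes with a GC content like that of JUND had a median log2 ratio of -0.30, those like JUNB -0.28, those like JUN -0.22 and those like ATF3 -0.11. After subtraction of this median, JUND was at -0.13 (adjusted p = 0.0697), JUNB at 0.02, JUN at 0.16 (adjusted p = 2.47e-10), IER2 at 0.21 (adjusted p = 0.00834) and ATF3 at 0.25 on the log2 scale, by the same exact binomial test. The direction for JUN, JUNB, IER2, FOSL1 and FOSL2 depends on this step, and the part of GC content in the ratios was not tested. With an edgeR exact test at an assumed biological coefficient of variation of 0.1, 0 of the 10 genes passed, 1 had an unadjusted p under 0.05, and 7.24% of all genes passed.

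**Figure D4:**
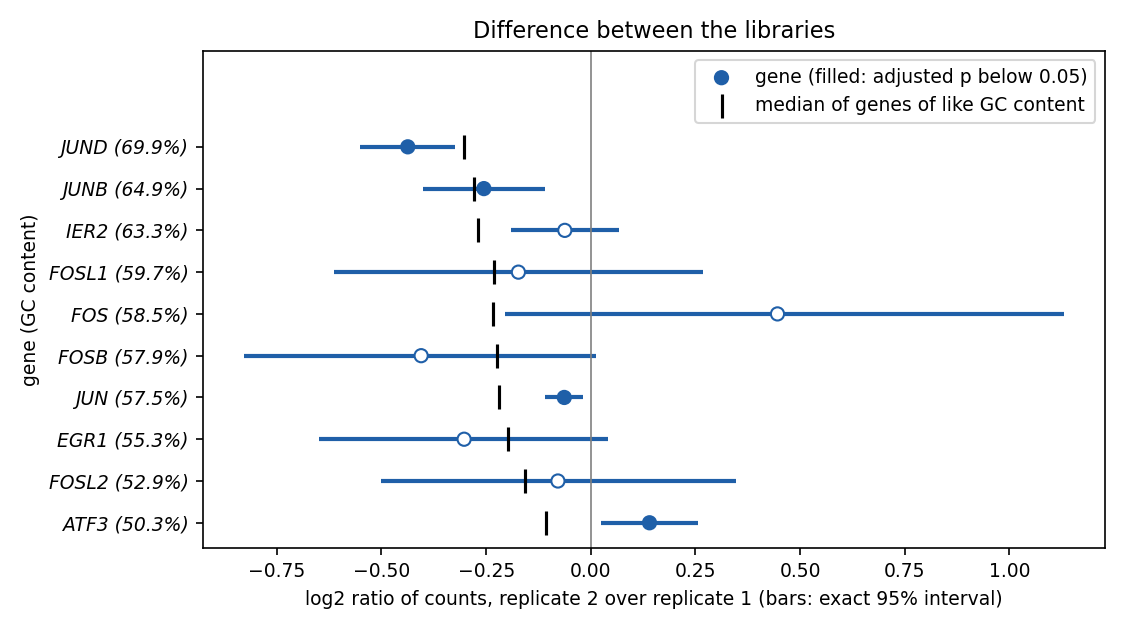
Log2 ratio of scaled counts, replicate 2 over replicate 1, of each gene with its exact 95% interval, ordered by GC content, and the median of genes of like GC content as black ticks. JUND, JUNB, JUN and ATF3 (filled points) passed the test, and the FOS interval spans -0.21 to 1.13.

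The genes around this group were described by lists. The first held 19 other AP-1 partners and relatives with a basic leucine zipper. Of these, 18 were detected, beside 63.8% of all protein-coding genes, and the median over the list was 17.5 TPM. ATF4, the translationally controlled factor of the integrated stress response, was at 1105.92 and 981.91 TPM (1044 ± 87.7, SD, n = 2). CREB1, which binds the CRE, had a mean of 58.1 TPM and its relative CREB5 49.9 TPM. Between the libraries 10 of 18 tested genes passed, 5 in each direction, beside 42.5% of all genes tested and 56.3% of those with 100 or more counts. The largest ratios were for ATF2 (log2 ratio 0.79) and ATF1 (0.77), where genes of like GC content had medians of 0.34 and 0.18. BATF, a factor of lymphoid cells, had 0 counts in both libraries.

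The EGR relatives and EGR partners were 8 genes with a median of 10.3 TPM, of which 5 were detected, beside 63.8% of all protein-coding genes. EGR1 was above the other EGR genes, which are named here after their values were seen. EGR2 was at 0.43 and 0.45 TPM, EGR3 at 1.26 and 0.85, and EGR4 at 0.05 and 0.00. SP1, which binds GC boxes that can overlap EGR sites, had a mean of 57.2 TPM, SP3 16.5 TPM and the EGR corepressor NAB1 13.8 TPM. Of 7 tested genes 3 passed, all higher in replicate 2, beside 42.5% of all genes tested in either direction. SP3 (log2 ratio 0.80) and NAB1 (0.52) differed the most, where genes of like GC content had medians of 0.53 and 0.14.

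Of 30 other immediate early genes, 28 were detected, beside 63.8% of all protein-coding genes, with a median of 7.66 TPM. MYC was the highest at 277.22 and 262.86 TPM (270 ± 10.2, SD, n = 2), above JUN. RHOB, a small GTPase, had a mean of 62.8 TPM and the survival factor MCL1 58.4 TPM. Only MYC and RHOB passed the test between libraries, 2 of 30, both higher in replicate 1, beside 42.5% of all genes tested in either direction. SNAI1 (log2 ratio 0.54, adjusted p = 0.144) and SGK1 (-0.53, adjusted p = 0.0805) had the largest ratios by the exact binomial test, from few counts. Genes of like GC content had median log2 ratios of -0.23 and 0.10. CCN2, at 1.20 and 0.93 TPM, and ARC, at 0.51 and 0.88 TPM, did not reach the detection level in both libraries, and are named after their values were seen.

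The upstream regulators were all detected, beside 63.8% of all protein-coding genes. SRF, with its ternary complex partners and coactivators, made a list of 8 genes with a median of 28.2 TPM. Of these, 7 passed the test between libraries, 4 of them higher in replicate 2. Among all genes tested 42.5% passed, and among those with 100 or more counts 56.3%. SRF itself had a mean of 65.4 TPM, its partner ELK1 63.7 TPM and the acetyltransferase CREBBP 42.8 TPM. The largest log2 ratios were 0.84 for ELK4 and 0.51 for ELK3, where genes of like GC content had medians of 0.24 and 0.09. The MAP kinase list of 23 genes had a median of 32.4 TPM. Beside the same shares over all genes, 17 of them passed, 8 higher in replicate 2 and 9 in replicate 1. MAPK3, which encodes ERK1, had a mean of 299 TPM and its activator MAP2K2 149.9 TPM. The largest log2 ratios were 0.63 for RPS6KA3 and 0.53 for BRAF, where genes of like GC content had medians of 0.45 and 0.29.

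The next list held genes for feedback inhibitors and for regulators of mRNA decay in either direction. The list held 19 matched genes for feedback phosphatases, SPRY and SPRED inhibitors and regulators of mRNA decay, with a median of 9.89 TPM. Of these, 17 were detected, beside 63.8% of all protein-coding genes. The RNA-binding proteins HNRNPD, KHSRP and ELAVL1, which bind AU-rich elements, had means of 724, 671 and 101 TPM. Of 18 tested, 7 passed, 1 higher in replicate 2 and 6 in replicate 1, beside 42.5% of all genes tested. SPRED1 (log2 ratio 0.65) and SPRY2 (-0.31) differed the most, where genes of like GC content had medians of 0.58 and -0.04. DUSP6, a phosphatase of ERK, at 0.51 and 0.66 TPM, and SPRY4, at 0.00 and 0.02 TPM, were not detected, and are named after their values were seen. A further list held 5 genes for ubiquitin ligases, or parts of ligase complexes, that act on JUN or FOS. All 5 were detected, beside 63.8% of all protein-coding genes, with a median of 15.3 TPM. Beside the same shares over all genes, 3 of 5 passed, 2 of them higher in replicate 2. STUB1 had a mean of 155 TPM, ITCH 34.0 TPM and FBXW7 15.3 TPM.

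**Figure D5:**
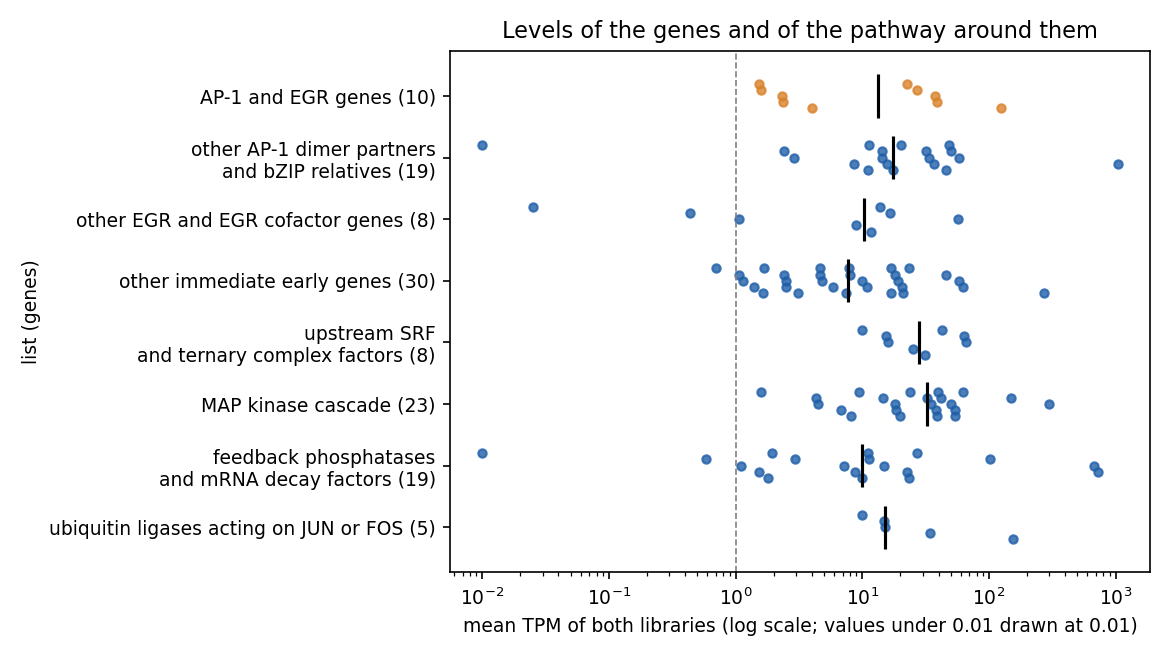
Mean TPM of each gene (log scale) for the AP-1 and EGR genes and for the lists around them, with a black tick at the median of each list and a dashed line at 1 TPM. ATF4, at 1044 TPM, is the highest point, and the median of the 10 genes is 13.4 TPM.

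The pentamer ATTTA, the core of AU-rich elements, was counted in the 3′ UTR of the canonical transcript. By itself it is common and does not mark an mRNA as short-lived. It occurred at least once in 9 of the 10 genes, beside 67.6% of 19403 protein-coding genes, and at least 3 times in 5, beside 41.6%. FOSL2 held 9 copies and FOS 5, whereas IER2 held 0. The longer form TTATTTATT was present in FOS and FOSL2 alone of the 10 genes, and in 8.43% of all.

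The libraries held 22529828 and 26890199 expected counts in replicate 1 and replicate 2. A count of 0 allows up to 3 counts, or a CPM (the count scaled to the library total) of 0.133 and 0.1116, a limit that covers counting error only. Markers of HEK293T cells were detected for 6 of 7 matched genes, beside 63.8% of all protein-coding genes. Their summed level was 851.8 and 776.66 TPM, led by VIM at a mean of 647 TPM, KRT18 at 52.6 TPM and NEFM at 50.8 TPM. EPCAM was at 0.89 and 0.68 TPM. Of 7 markers of other cell types, COL1A1 (22.5 TPM) and MYOD1 (2.62 TPM) were detected, the sum was 27.19 and 23.52 TPM, and PTPRC, CD3E and INS had 0 counts in both libraries.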

How the data were processed

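Reads of 50 bp were made by the authors from poly(A)+ RNA of HEK293T cells in 2 replicates of 1 group, taken from the labels. Genomic DNA is given as the molecule in the labels, although their protocol describes poly(A)+ RNA. The submitters' processing notes name Trimmomatic 0.36, STAR 2.6.1c, RSEM 1.3.1 and hg19 (GRCh37.p13), whereas the study's methods name featureCounts. The authors deposited an expected count per gene, in which multi-mapped reads were shared among genes, TPM values with credibility bounds, and FPKM values. Sharing of reads can make genes with near copies or overlaps uncertain. Because TPM sums to the same total in each library, levels are relative.

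The 10 genes and all lists were chosen with earlier results of these data known. All 10 genes were named, with the 3 highest genes of each list and the 2 of largest ratio among those with 100 or more counts over both libraries, except 1 gene that is not reported here. Identifiers were matched to GENCODE release 44 mapped to GRCh37 (96.1% of 57736 with a symbol and a GC value), and CCN2, among others, through RefSeq synonyms. DUSP14, NEFL and PECAM1 were not matched. Promoters came from RefSeq (GRCh38.p14).

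Expected counts were rounded. Log2 ratios used edgeR 4.0.16 TMM factors from genes with 10 or more counts over both libraries and a pseudocount of 0.5, and the same genes entered an exact binomial test, two-sided and adjusted by Benjamini-Hochberg. With few counts the precision is low, and intervals are exact at 95%. GC trends were medians in 50 classes of genes. The scripts were tested on simulated data. Alternatives covered thresholds, units, scaling (library totals, DESeq2 1.42.0 size factors), count minimums, an assumed coefficient of variation, GC content and leaving out each replicate, and TMM from all genes and canonical lengths were added after seeing the data.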

Additional observations from a re-analysis of the deposited data

How the results depend on the processing

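No paired analysis was possible because both libraries belong to 1 group. With a TPM of at least 5, or of at least 10, 5 of the 10 genes were detected, those from JUN to JUNB, beside 50.8% and 40.5% of protein-coding genes at these thresholds (18.7% and 14.5% of all listed genes). With the edgeR exact test at an assumed coefficient of variation of 0.1, 0 genes differed between the libraries. With the GC trend removed the log2 ratio changed sign for FOSL1 (0.059), FOSL2 (0.078), JUN (0.16), JUNB (0.025) and IER2 (0.21), and 3 genes passed, JUN, ATF3 and IER2, beside 26.2% of all genes tested. The JUN family held 86.3% of the AP-1 genes by expected counts, 75.8% without JUND and 95.1% without ATF3, and 77.4% to 82.1% when either replicate was left out. All 10 genes were detected in each replicate alone (10 to 10). Ratios and tests between the libraries need both, so neither was left out there. JUN lost its call with library totals and with TMM factors from all genes (adjusted p = 0.145), and ATF3 lost its call with no minimum count (adjusted p = 0.0645), all by the exact binomial test with Benjamini-Hochberg adjustment. Of all called genes, 48.4% were higher in replicate 2 with TMM factors, 56.5% with library totals, 50.2% with DESeq2 size factors and 52.2% with TMM factors from all genes. Canonical lengths moved 5 of the 10 levels by more than 1 SD, and posterior mean TPM moved 5. Both told 7 of the 9 neighbouring pairs apart, but both also changed the order around FOS. By posterior mean TPM FOS lay above EGR1, with means of 3.22 and 2.315 TPM. With canonical lengths the mean of FOS lay below that of FOSB, at 1.06 against 1.35 TPM. In replicate 2 alone FOS stayed above FOSB with canonical lengths, at 1.27 against 1.21 TPM. FPKM rescales all genes of a library alike, told 6 pairs apart and does not test the levels. Depth limited FOS, FOSB, FOSL1 and FOSL2 the most.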
